A study of Homo sapiens with 3 samples.

Results

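Integrin and laminin genes, which encode the receptors that fasten cells to the extracellular matrix and the main proteins that those receptors grip in a basement membrane, were measured in A549 cells, an established line from a human lung adenocarcinoma. A gene was taken as a member if the RefSeq accession of its probe led to the symbol of an integrin alpha or beta subunit or of a laminin alpha, beta or gamma chain, and proteins that only bind integrins were not taken. The arrays carried 52 probes for 38 such genes, of 22439 genes with a RefSeq symbol. These were 26 integrin genes and 12 laminin genes. Total RNA was extracted with Trizol from mock cells and from cells given *miR-139-5p* or *miR-139-3p*, labelled with Cy3 and put on Agilent arrays of 1 colour, with 1 array for each condition. All cells were grown in the same medium and the miRNAs were delivered with Lipofectamine RNAiMAX, at a single concentration for all precursors according to the methods. The mock cells received the transfection reagent and no precursor, so no group with a control RNA was measured. The comparisons of each transfected array with mock address which genes change in level when a strand of pre-*miR-139* is supplied to LUAD cells.

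Each integrin pairs an alpha with a beta subunit across the cell membrane, and the pair decides which matrix protein is bound. Each laminin is a cross-shaped trimer of an alpha, a beta and a gamma chain, and its chains are named by the genes that encode them. In epithelia such as the lining of the lung, the pair of *ITGA6* and *ITGB4* anchors cells to laminin at hemidesmosomes, while pairs with *ITGB1* or *ITGAV* sit in focal adhesions that connect to actin.

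The mature strands that were transfected are shown because their seeds, bases 2 to 8 in capitals, differ, so that each strand reads its own set of sites. Both sequences are from RefSeq on build GRCh38.p14, 5′ to 3′, and both lie on the minus strand of the same hairpin, at chr11:72615102-72615124 for *miR-139-5p* and chr11:72615066-72615088 for *miR-139-3p*.
miR-139-5p: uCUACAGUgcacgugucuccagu
miR-139-3p: uGGAGACGcggcccuguuggagu

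Each array held 60901 spots other than controls, and 49.9% of them were well above background in mock, 48.1% after *miR-139-5p* and 53.1% after *miR-139-3p* transfection. Signals are given here scaled to the mock array, so that the 75th percentile of every array equals its 93.6, and the ratio of 2 signals of a probe is then its fold change. Where 3 signals are listed without labels, they are those of mock, then *miR-139-5p*, then *miR-139-3p*, and unlabelled pairs of log2 fold changes or bounds give *miR-139-5p* before the other strand. The log2 fold change of a gene averages those of its probes that were well above background on each of the arrays compared. Where a probe passed on only 1 array, the fold is a bound, for which the dim array took whichever was greater, its own signal or the lowest one found there among probes well above background. A gene is called lower or higher than mock when its log2 fold change is below -0.5 or above 0.5. Because each condition was measured once, no difference could be checked in replicates or tested, and precision is limited by how few arrays there are. Probes of the same gene differed with a median SD of 0.28 on the log2 scale after *miR-139-3p* and 0.15 after *miR-139-5p*. This gauges only the agreement between probes on the same arrays and holds no error between cultures, transfections or slides. Slide 1 held mock and *miR-139-5p* and slide 2 held *miR-139-3p*, so slide and *miR-139-3p* transfection cannot be told apart. Both comparisons use the same mock array, so their values are set side by side without any measure of overlap.

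The cells carried the defining markers of their label. All 8 epithelial and A549 markers, among them the keratin *KRT18* and the aldo-keto reductase *AKR1B10*, were well above background on the 3 arrays, with summed signals of 217250 in mock, 186380 after *miR-139-5p* and 146810 after *miR-139-3p*, and the brightest probes were those of *KRT18*, *AKR1B10* and *KRT18* in that order, though signals of different probes do not rank abundance. The markers did not all move alike. After *miR-139-5p*, 3 of the 8 stood lower and 0 higher, with *KRT18* at -0.77 and *AKR1B10* at 0.31. After *miR-139-3p*, 4 stood lower and 1 higher, with *AKR1B10* at -1.43, *KRT18* at -0.84 and *EPCAM* at 0.97. The part of such shifts in the members' values was not tested. Of the 38 members, 26 had a probe well above background on all 3 arrays, 6 on 1 or 2 arrays and 6 on none. A value against mock could be given for 31 members in each comparison, 26 measured and 5 bounds for *miR-139-3p* and 29 measured and 2 bounds for *miR-139-5p*.

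With *miR-139-3p*, the subunits of the hemidesmosome receptor were lower than in mock, *ITGA6* at a log2 fold change of -1.04 and *ITGB4* at -0.73. The alpha subunit *ITGA3*, the beta subunit *ITGB5* and the laminin chains *LAMA3* and *LAMC1* were lower as well. The laminin chains *LAMA4* and *LAMB2* were higher, as were the collagen receptor *ITGA2* and the subunits *ITGA7*, *ITGB8* and *ITGAM*. In all, 10 of 31 members were lower and 11 were higher, against 27.9% and 26.5% of the 15572 genes with a value. The members' shares, 32.3% and 35.5%, were not far above those of all genes. At a log2 fold of 1, 3 members were lower and 3 higher, against 11.8% and 12.3% of all genes. The median over the members was -0.16, beside -0.05 for all genes, but its sign is not settled, since it was 0.12 with bounds left out, 0.05 with dim probes included, 0.03 with quantile normalization and 0.01 with normexp. The split moved with the scaling. When the percentile for scaling was taken over probes detected on every array, 6 were lower and 12 higher, and the numbers were 11 and 7 with quantile normalization, and 13 and 7 both with E1A spike-in scaling and with no scaling. The median of all genes shifted by 0.14 under the percentile of detected probes, by -0.19 with E1A and by -0.21 with no scaling. The share of higher genes among all genes called went from 48.8% to 35.1% with E1A and to 34.2% with no scaling.

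With *miR-139-5p*, the gene that stood highest above mock was the collagen receptor *ITGA1*, at a log2 fold change of 1.67. The subunits *ITGAV* and *ITGA6* and the laminin chains *LAMC1* and *LAMB1* were also higher. The lowest measured value was that of *ITGB2*, the beta subunit of leukocyte integrins, at -1.86. In all, 10 of 31 members were higher and 5 were lower, against 10.7% and 12.3% of the 15018 genes with a value. The members' share was 32.3% on the higher side, above that of all genes, and 16.1% on the lower side, nearer to it, and the list as a whole was not tested. At a log2 fold of 1, 3 members were higher and 2 lower, against 1.92% and 2.38% of all genes. The median over the members was 0.07, beside -0.01 for all genes. With no scaling, 9 members were higher and 8 lower, and the share of higher genes among all genes called went from 46.6% to 33.9%. With E1A spike-in scaling that share was 66.5%, the median of all genes shifted by 0.12, and 12 members were higher and 4 lower.

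**Figure D1:**
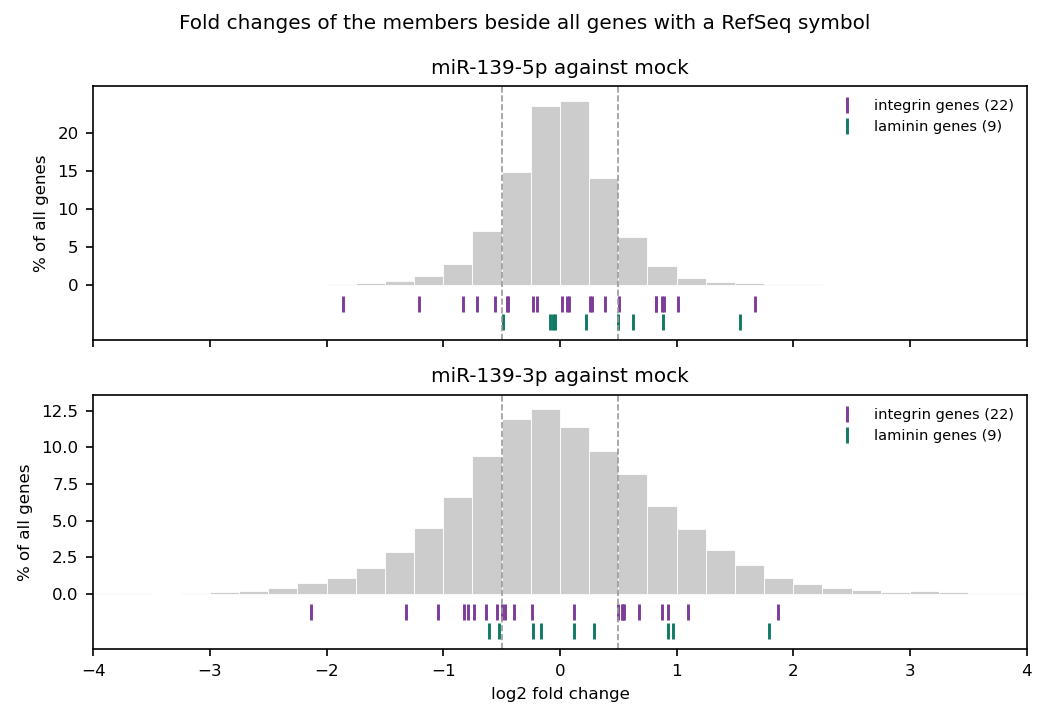
Grey bars give the percent of all genes with a RefSeq symbol in bins of the log2 fold change against mock (x axis), above for *miR-139-5p* and below for *miR-139-3p*; ticks under the bars are the 22 integrin and 9 laminin genes with a value, bounds included, and dashed lines mark -0.5 and 0.5. The members spread over much of the range of all genes in both comparisons, whose measured values had an SD of 0.45 after *miR-139-5p* and 0.87 after *miR-139-3p*.

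The calls that were past the fold in all 11 alternatives at the 0.5 threshold are the ones least tied to the processing. For *miR-139-3p* these were 6 of the 21 members called, among them *ITGA6*, *ITGB4* and *ITGB5* on the lower side and *ITGA7* and *LAMB2* on the higher side. For *miR-139-5p* they were 5 of 15, among them *ITGA6*, *ITGAV*, *LAMB1* and *LAMC1*, all higher than mock. Not all 11 could move every gene. A gene measured by its only probe, without outlier spots, keeps its value under the settings for dim probes, bounds, outliers and the probe taken. Every other call came inside the fold under at least 1 alternative, often under the normexp background correction, whose offset of 50 draws the folds of dim probes towards 0. Values inside the fold could also pass it under an alternative, as did those of *ITGA1*, *ITGA5*, *ITGA9*, *ITGAX* and *ITGB7* for *miR-139-3p* and of *ITGA3*, *ITGA9*, *ITGAM*, *LAMA3* and *LAMC3* for *miR-139-5p*.

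**Figure D2:**
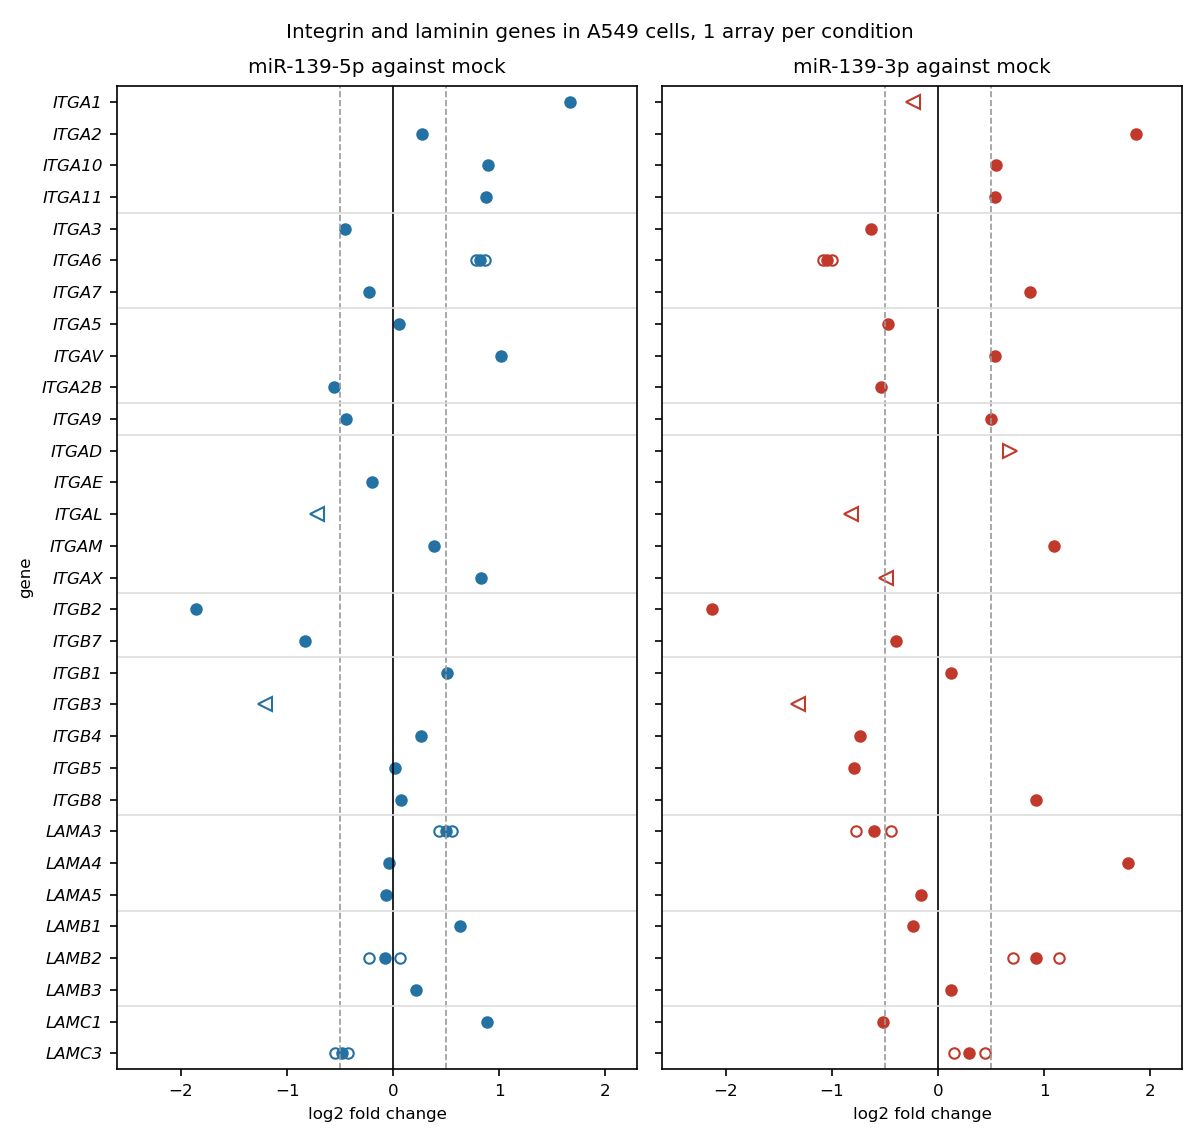
Log2 fold change against mock (x axis) of 31 of the 32 members with a value in at least 1 comparison (y axis, grouped by role), for *miR-139-5p* on the left and *miR-139-3p* on the right, with 1 array per condition. Filled points are gene values, open circles their probes where a gene has more than 1, open triangles are bounds pointing towards larger changes, and dashed lines mark -0.5 and 0.5; *ITGA6* lies at 0.82 on the left and at -1.04 on the right.

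Laminin is bound chiefly by the alpha subunits *ITGA3*, *ITGA6* and *ITGA7*. *ITGA6*, which pairs with *ITGB4* or *ITGB1*, was read by 2 probes. The brighter gave signals of 243 in mock, 443 after *miR-139-5p* and 121 after *miR-139-3p*, and the dimmer gave 158, 272 and 74.8 in the same order. Both probes thus stood above mock on the *miR-139-5p* array and below it on the *miR-139-3p* array, by 1.77-fold and 2.06-fold over the gene. Their folds differed by an SD of 0.06 in each comparison, less than the median between probes of a gene. *ITGB4*, whose long tail links the receptor to keratin filaments, had signals of 1558 in mock, 1867 after *miR-139-5p* and 937 after *miR-139-3p*. Its log2 fold change was -0.73 after *miR-139-3p* and 0.26 after *miR-139-5p*, the latter inside the fold. *ITGA3*, which pairs with *ITGB1* to bind the laminins of epithelia, had signals of 1256 in mock, 915 after *miR-139-5p* and 811 after *miR-139-3p*. At -0.63 it was lower with *miR-139-3p*, though inside the fold at -0.43 with quantile normalization and at -0.49 when the percentile was taken over detected probes. With *miR-139-5p* it stood at -0.46, inside the fold. *ITGA7*, best known as the laminin receptor of muscle, went the other way with *miR-139-3p*, from a signal of 101 in mock to 184, a log2 fold change of 0.87. Its signal with *miR-139-5p* was 86.0, at -0.23. The laminin receptors therefore did not all stand on the same side of mock with *miR-139-3p*, since *ITGA3*, *ITGA6* and *ITGB4* were lower and *ITGA7* higher.

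*ITGB1*, the partner of most alpha subunits, and *ITGAV*, the alpha subunit that binds vitronectin and latent TGF-beta, are each read by a probe printed in 10 spots. This shows the technical spread within an array, which holds no spread between cultures. Over probes printed in 10 spots, the median SD between spots on the log2 scale was 0.048 in mock. It was 0.053 after *miR-139-5p* and 0.057 after *miR-139-3p*. With so little spread, spots can separate between arrays at small folds, and how many other probes did so was not counted. For *ITGAV* the spots ran from 829 to 915 in mock, with a median of 883. They ran from 1681 to 1858 with a median of 1766 after *miR-139-5p*, and from 1179 to 1335 with a median of 1283 after *miR-139-3p*. The 3 sets of spots did not overlap, and the log2 fold changes were 1.01 after *miR-139-5p* and 0.53 after *miR-139-3p*. The latter was close to the threshold and came inside it with E1A spike-in scaling, with no scaling and with normexp. For *ITGB1*, 8 spots were left in mock after outliers, from 1038 to 1081 with a median of 1051. The 10 spots on the *miR-139-5p* array, from 1464 to 1545 with a median of 1488, lay above all of these, at a log2 fold change of 0.51. That value too was close to the threshold. It came inside at 0.49 with the percentile over detected probes and at 0.43 both with no scaling and with normexp. On the *miR-139-3p* array the spots ran from 1079 to 1215 with a median of 1141 and overlapped those of mock, and the log2 fold change of 0.12 turned negative with E1A spike-in scaling and with no scaling. For both genes the spots were highest on the *miR-139-5p* array.

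**Figure D3:**
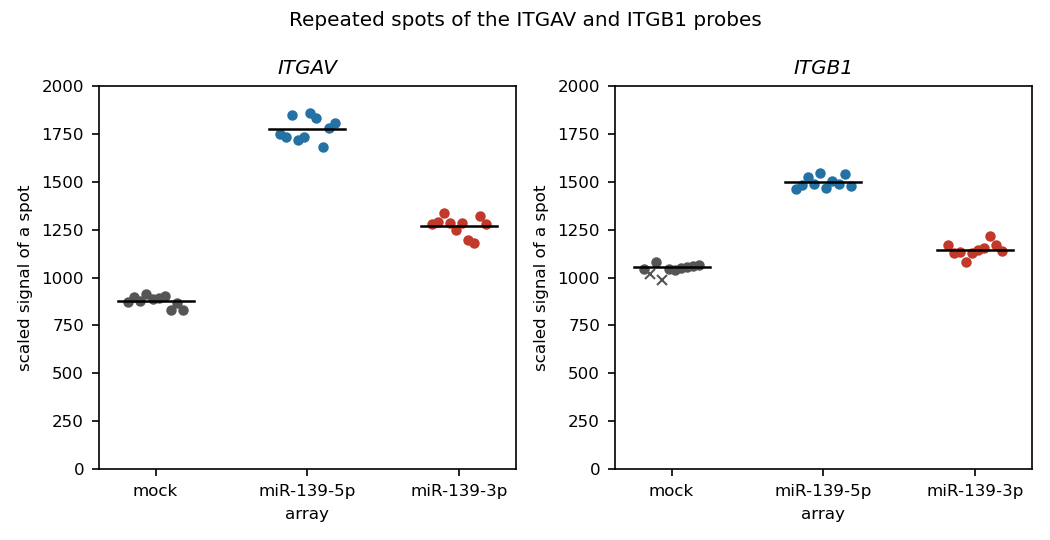
Scaled signal (y axis, linear from 0) of each spot of the *ITGAV* and *ITGB1* probes on each of the 3 arrays (x axis). Points are spots, crosses are outlier spots left out, and black lines are means over the spots kept; spots of *ITGAV* do not overlap between arrays, while those of *ITGB1* on the *miR-139-3p* array overlap those of mock.

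The receptors for RGD, the short peptide motif of fibronectin and vitronectin, differed among themselves. *ITGB5*, which pairs with *ITGAV* to bind vitronectin, had signals of 2270 in mock, 2302 after *miR-139-5p* and 1312 after *miR-139-3p*. Its log2 fold change was -0.79 with *miR-139-3p*, while that of *ITGAV*, its partner, was above 0 on the same array. With *miR-139-5p* it was 0.02, a value whose sign depends on the scaling. *ITGB8*, another partner of *ITGAV* that activates TGF-beta, was dim, with signals of 7.08, 7.46 and 13.4 in the same order. It was higher at 0.92 with *miR-139-3p*, inside the fold at 0.45 with quantile normalization, and at 0.07 with *miR-139-5p*. *ITGA5*, which pairs with *ITGB1* as the fibronectin receptor, had signals of 170, 176 and 122, with -0.47 after *miR-139-3p* and 0.06 after *miR-139-5p*, both inside the fold. The former passed it with E1A spike-in scaling and with no scaling, and the latter turned negative with no scaling.

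*ITGB3* and *ITGA2B* form the fibrinogen receptor of platelets, and *ITGB3* also pairs with *ITGAV* in other cells. *ITGB3* was well above background on the mock array alone, with a signal of 12.5, against 1.42 after *miR-139-5p* and 1.23 after *miR-139-3p*. It was at least 2.32-fold lower with *miR-139-5p* and at least 2.50-fold lower with *miR-139-3p*, and the calls rest on a single dim spot per array. *ITGA2B* had signals of 15.9, 10.8 and 10.9, at -0.56 and -0.54, just past the fold in each comparison. Of 3 platelet markers, *PF4* and *GP9* were above background on every array and *GP1BA* had no matched probe. Their summed signal was 67.6 in mock, 41.9 after *miR-139-5p* and 70.9 after *miR-139-3p*, and the brightest probe was that of *PF4* on the first and second of these and of *GP9* on the last. *PF4* was at -0.96 after *miR-139-5p* and -1.11 after *miR-139-3p*. *GP9* was at -0.11, which turned sign with the scaling, and at 1.45. What part these genes have in the values of *ITGB3* and *ITGA2B* was not tested.

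Collagen is bound by 4 alpha subunits, all partners of *ITGB1*, and all had a value. *ITGA2*, the main collagen receptor of epithelial cells, had signals of 7.38 in mock, 8.93 after *miR-139-5p* and 26.9 after *miR-139-3p*. It was 3.65-fold higher than mock with *miR-139-3p*, at a log2 fold change of 1.87, the highest of all members there, and stood at 0.28 with *miR-139-5p*. *ITGA1*, the receptor that favours basement membrane collagen, showed another pattern, with signals of 5.88, 18.7 and 2.64. It was 3.18-fold higher after *miR-139-5p*, and after *miR-139-3p*, where it was not well above background, at least 1.18-fold lower. These genes lie close together on chromosome 5, with 1 protein-coding gene between them in the annotation. *ITGA10* and *ITGA11*, receptors of cartilage and of fibroblasts, had values much like each other. *ITGA10* had signals of 26.9, 49.8 and 39.2, at 0.89 after *miR-139-5p* and 0.54 after *miR-139-3p*. *ITGA11* had signals of 17.4, 31.9 and 25.3, at 0.87 and 0.54. For *miR-139-3p*, *ITGA10* and *ITGA11* came inside the fold at 0.31 and 0.21 with quantile normalization. They did so too with E1A spike-in scaling, no scaling, normexp and the deposited values. For *miR-139-5p* they came inside it with normexp, at 0.42 and 0.29. All 4 probes are dim, and under normexp the values of *ITGA1* and *ITGA2* shrank to 0.32 and 0.44 in the comparisons where they were called.

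Several members are known mainly from leukocytes, where *ITGB2* and *ITGB7* are the beta subunits that join alpha subunits such as *ITGAL*, *ITGAM*, *ITGAX*, *ITGAD* and *ITGAE*. *ITGB2* had signals of 29.7 in mock, 8.21 after *miR-139-5p* and 6.77 after *miR-139-3p*. It was 3.62-fold lower with *miR-139-5p* and 4.39-fold lower with *miR-139-3p*, the lowest measured value of any member in each comparison. These values rest on 1 spot per array. Both transfected signals lay near the lowest found well above background, 5.39 after *miR-139-5p* and 4.99 after *miR-139-3p*. With normexp the log2 fold changes of *ITGB2* shrank to -0.39 and -0.38, inside the fold. *ITGB7* had signals of 65.7, 36.9 and 49.9, lower at -0.83 with *miR-139-5p* and inside the fold at -0.40 with *miR-139-3p*. *ITGAL*, the partner of *ITGB2* on lymphocytes, was well above background in mock only, at 8.84 against 4.69 and 1.53, and was at least 1.64-fold and at least 1.77-fold lower. Unlike these, *ITGAM*, the partner of *ITGB2* on myeloid cells, was 2.14-fold higher with *miR-139-3p*, with signals of 26.2, 34.2 and 56.1, and stood at 0.38 on the log2 scale with *miR-139-5p*. Its neighbour *ITGAX*, next to it on chromosome 16 with no protein-coding gene between, had signals of 7.02, 12.5 and 3.68. It was higher at 0.83 with *miR-139-5p*, and at least 1.41-fold lower with *miR-139-3p*, where it was not well above background. *ITGAD*, the next gene along, passed background after *miR-139-3p* alone, at 7.73 against 3.69 in mock, and was at least 1.60-fold higher. That bound depends on the processing. Its log2 value came inside the fold at 0.12 with quantile normalization, 0.11 with the deposited values and 0.17 with normexp. With E1A spike-in scaling it was 0.49 and with no scaling 0.47, inside the fold as well.

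*ITGAE*, which with *ITGB7* binds E-cadherin, had signals of 781 in mock and 682 with *miR-139-5p*, at -0.20. Its only spot on the *miR-139-3p* array was marked as an outlier, so no value is given there. *ITGA9*, a receptor for tenascin and osteopontin, had signals of 14.6, 10.7 and 20.6, at -0.45 after *miR-139-5p* and 0.50 after *miR-139-3p*, inside the fold in each case. Among 6 leukocyte markers, *PTPRC* and *CD14* were well above background in mock and with *miR-139-5p*, and *CD3E* as well with *miR-139-3p*, while *LAPTM5* did not pass background on any array and *CD68* had no matched probe. The summed signal of the markers, those below background included, was 309 in mock, 337 after *miR-139-5p* and 109 after *miR-139-3p*, and the probe of *CD14* was the brightest throughout, at 292, 320 and 74.0. The brightest probe of *PTPRC*, which defines leukocytes, had signals of 10.3, 10.7 and 23.3. The part of these genes in the values of the leukocyte integrins was not tested.

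**Figure D4:**
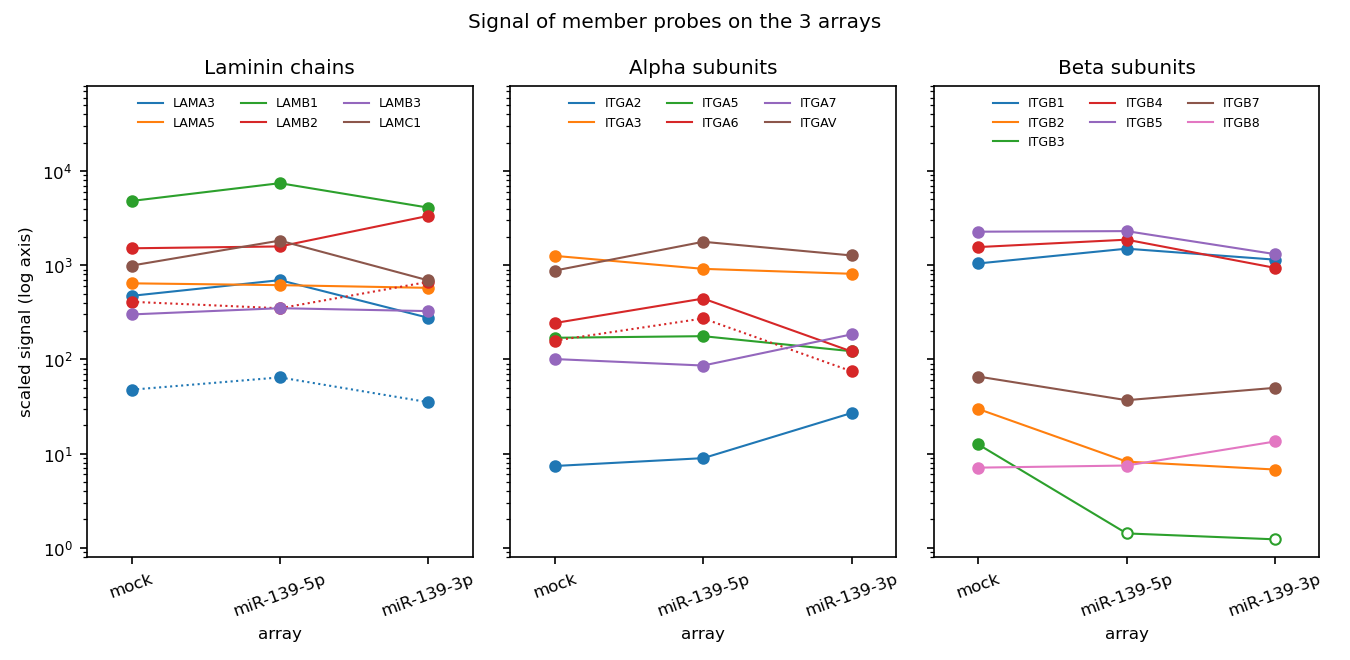
Scaled signal (y axis, log scale) on each of the 3 arrays (x axis) of the probes of selected laminin chains, alpha subunits and beta subunits, with dotted lines for the dimmer probe of a gene with 2. Filled points are well above background and open points are not, and levels are comparable along a line but not between lines; *ITGB3* is filled on the mock array only.

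Laminin chains were measured for 9 of 12 genes. With *miR-139-5p*, 3 of these were higher than mock and 0 lower, with a median of 0.22, and with *miR-139-3p*, 3 were higher and 2 lower, with a median of 0.12. Of all genes, 10.7% were higher and 12.3% lower after *miR-139-5p*, and 26.5% and 27.9% after *miR-139-3p*, where the shares of the chains, 33.3% and 22.2%, were near these. *LAMA3*, the alpha chain of the laminin at hemidesmosomes, was read by 2 probes, with signals of 473, 694 and 277 for the brighter and 47.6, 64.4 and 35.1 for the dimmer. At -0.61 it was lower with *miR-139-3p*, and at 0.49 with *miR-139-5p* it was just inside the fold. *LAMB3*, a beta chain of the same laminin, had signals of 300.1, 350 and 326, at 0.22 after *miR-139-5p* and 0.12 after *miR-139-3p*, the latter turning sign with some scalings. Of these chains, then, *LAMA3* was lower and *LAMB3* inside the fold with *miR-139-3p*.

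The laminins with *LAMB1* and *LAMC1* are the common ones of basement membranes, and *LAMA5* is their alpha chain in lung epithelium. *LAMC1* had signals of 991 in mock, 1826 after *miR-139-5p* and 691 after *miR-139-3p*. It was 1.84-fold higher with *miR-139-5p* and 1.44-fold lower with *miR-139-3p*, the latter close to the threshold at -0.52 and inside it at -0.34 with quantile normalization, at -0.38 with the percentile over detected probes and at -0.33 with the deposited values. *LAMB1* had signals of 4811, 7432 and 4090, higher at 0.63 with *miR-139-5p* and inside the fold at -0.23 with *miR-139-3p*. *LAMA5* had signals of 642, 614 and 575, at -0.06 and -0.16, values whose sign depends on the scaling. The beta and gamma chains were thus higher than mock with *miR-139-5p* where the alpha chain differed little.

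*LAMB2*, the beta chain of laminins in vessels, muscle and kidney, was higher with *miR-139-3p* on both of its probes. The brighter gave 1512 in mock, 1582 after *miR-139-5p* and 3341 after *miR-139-3p*, and the dimmer 409, 349 and 665. The gene stood at 0.92 with *miR-139-3p* and an SD between probes of 0.31, and at -0.08 with *miR-139-5p*, where the probes disagreed in sign and the gene value turned positive with E1A spike-in scaling. *LAMA4*, the alpha chain of vessel walls, had 1 of 4 probes well above background, with signals of 18.4, 17.9 and 63.7. Its log2 fold change was 1.79 after *miR-139-3p* and -0.04 after *miR-139-5p*, which turned positive with E1A spike-in scaling. The other 3 probes were not well above background on any array, and with all 4 averaged the value for *miR-139-3p* became -0.051. *LAMC3* had 2 of 3 probes above background, of which the brighter gave 56.2, 41.8 and 76.2 and the dimmer 12.5, 8.54 and 13.8. It was at -0.49 after *miR-139-5p* and 0.29 after *miR-139-3p*, inside the fold in each case.

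Promoters of members are shown for *ITGA6*, *LAMB1* and *LAMC1*, which were past the fold above mock with *miR-139-5p* in all 11 of those alternatives. The windows of 300 bases around the start of each gene are from RefSeq on build GRCh38.p14, at chr2:172427086-172427385 on the plus strand, chr7:108003112-108003411 on the minus strand and chr1:183023170-183023469 on the plus strand. Of the 38 members, 26 had such a window. Capitals mark matches, on either strand, to the letters of the GC box GGGCGG, the E-box CACGTG, the TATA box TATAAA and the AP-1 motif TGANTCA.
ITGA6: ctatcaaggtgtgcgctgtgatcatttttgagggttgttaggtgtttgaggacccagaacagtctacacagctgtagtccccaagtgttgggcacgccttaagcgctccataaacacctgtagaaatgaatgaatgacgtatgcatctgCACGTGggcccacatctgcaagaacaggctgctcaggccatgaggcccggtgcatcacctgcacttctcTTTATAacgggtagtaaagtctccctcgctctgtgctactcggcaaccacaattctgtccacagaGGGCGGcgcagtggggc
LAMB1: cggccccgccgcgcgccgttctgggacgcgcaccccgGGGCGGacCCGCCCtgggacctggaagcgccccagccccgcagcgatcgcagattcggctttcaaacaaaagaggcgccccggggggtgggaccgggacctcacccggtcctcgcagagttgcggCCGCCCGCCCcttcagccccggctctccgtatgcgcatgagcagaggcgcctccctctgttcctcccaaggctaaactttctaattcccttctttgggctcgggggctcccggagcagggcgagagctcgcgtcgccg
LAMC1: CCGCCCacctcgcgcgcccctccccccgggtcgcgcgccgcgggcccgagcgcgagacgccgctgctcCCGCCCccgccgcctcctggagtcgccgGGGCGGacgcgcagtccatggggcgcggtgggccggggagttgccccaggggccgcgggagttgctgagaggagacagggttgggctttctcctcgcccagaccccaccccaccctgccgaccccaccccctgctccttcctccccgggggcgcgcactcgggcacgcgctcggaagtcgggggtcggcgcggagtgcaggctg
*LAMB1* held 4 matches to the GC box, the last 2 of them overlapping, and *LAMC1* held 3. *ITGA6* held 1 match to the GC box, downstream of the start, 1 to the E-box, 101 bases upstream, and 1 to the TATA box, on the reverse strand 32 bases upstream. None of these 3 windows matched AP-1. *ITGAV*, which met the same rule, had a window with 0 matches to all 4 motifs, and it is not printed. Over all 35116 promoters of this length, 45% held a GC box, 7.26% an E-box, 11.5% a TATA box and 7.71% an AP-1 motif, and over the 26 members the counts were 14, 1, 1 and 2. A match describes the letters of the window only.

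No probe was well above background on any array for 6 members. These were *ITGA4*, the partner of *ITGB1* and *ITGB7* on lymphocytes, with 3 probes, *ITGA8*, a receptor of mesenchyme, *ITGB6*, the partner of *ITGAV* in injured epithelium, and the laminin chains *LAMA1*, *LAMA2* and *LAMB4*. *LAMB4* lies next to *LAMB1* on chromosome 7. Their levels lay below what these arrays can compare, and no fold is given.

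Around these receptors and ligands, 5 lists held 54 genes of the adhesion pathway. With *miR-139-3p*, 21 of 47 genes with a value were lower and 8 higher, with a median of -0.43 beside -0.05 for all genes. These are 44.7% and 17%, against 27.9% and 26.5% of all genes. With *miR-139-5p*, 3 of 45 were lower and 7 higher, 6.67% and 15.6% against 12.3% and 10.7%, with a median of -0.03. The number lower with *miR-139-3p* was 12 when the 75th percentile was taken over probes detected on all arrays, close to the 22.4% of all genes that were lower then. With quantile normalization 14 of 46 were lower and with the deposited values 14 of 47, near the 30.7% and 30.4% of all genes then. The number was 28 both with E1A spike-in scaling and with no scaling, when 37% and 37.8% of all genes were lower.

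Among integrin activators and adhesion adaptors, the proteins that join beta subunit tails to actin and to signalling kinases, 11 of 24 stood lower after *miR-139-3p* and 3 stood higher, 45.8% and 12.5% against 27.9% and 26.5% of all genes. *TNS4*, a tensin that binds the tail of *ITGB1*, had signals of 2639 in mock, 2590 after *miR-139-5p* and 507 after *miR-139-3p*, the last at -2.38. The focal adhesion scaffold *PXN*, at -1.95 over 2 probes, and the kinase *SRC*, at -1.60, were next. Several of the other lower genes lay close to the threshold. Among these, named after their values were seen, were *PTK2* at -0.507, *ACTN1* at -0.517 and *PARVB* at -0.535. *ACTN1* came inside the fold at -0.32 with quantile normalization. Higher were *LIMS2*, an adaptor of integrin-linked kinase, at 1.41, the talin *TLN2* at 1.21, and the tensin *TNS1* at 0.74, which turned to -0.76 with dim probes included. With *miR-139-5p*, 2 of 23 were lower, *LIMS2* at -1.42 and *TNS3* at -1.04, and 0 were higher, against 12.3% and 10.7% of all genes. The list holds *FERMT1*, an activator of *ITGB1* that the study picked on these same arrays, so its direction is no independent evidence.

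In the hemidesmosome list, the plakin *PLEC*, which ties *ITGB4* to keratin, was at -1.24 with *miR-139-3p* and the tetraspanin *CD151*, a partner of the laminin-binding integrins, at -1.16, 2 of the 3 genes with a value, against 27.9% lower of all genes, which says little over so few genes. The plakin *DST* was higher with *miR-139-5p*, at 0.72. *DAG1*, a laminin receptor outside the integrin family, had signals of 512, 401 and 123, and was at -2.05 with *miR-139-3p*. Among basement membrane partners of laminin, 4 of 9 were higher with *miR-139-5p* and 0 lower, against 10.7% and 12.3% of all genes, led by the collagen chain *COL4A1* at 1.19 and *NID1*, which links laminin to collagen, at 0.54. The others, *COL4A2* at 0.51 and the proteoglycan *HSPG2* at 0.50, were just past the fold and are named after their values were seen. With *miR-139-3p*, 3 of 10 were lower and 3 higher, near the shares of all genes, with *NID2* at -1.39, *NID1* at -0.71 and *COL4A2* at -0.56 on the lower side and *HSPG2* at 0.66 and *COL4A5* at 0.63 on the higher, where *COL4A3*, named after its value was seen, was at least 1.61-fold higher. *NID1*, like *LAMC1* which it binds, thus stood above mock with *miR-139-5p* and below it with *miR-139-3p*.

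Among other ligands of integrins, 4 of 8 stood lower after *miR-139-3p* and 2 stood higher, 50% and 25% against 27.9% and 26.5% of all genes. *ICAM1*, the ligand of the *ITGB2* receptors, had signals of 7.12 in mock, 6.73 after *miR-139-5p* and 51.0 after *miR-139-3p*, a 7.16-fold difference from mock in the last, while *ITGB2* itself was lower. *VTN*, the vitronectin that *ITGAV* and *ITGB5* bind, was at -0.93, the collagen chain *COL1A1* at -0.61 and *TGFB1* at -0.53. Bounds, named after their values were seen, were *FN1*, the fibronectin that *ITGA5* binds, at least 4.98-fold lower, and *NPNT*, a ligand of *ITGA8*, at least 2.54-fold higher. With *miR-139-5p*, 1 of 8 was lower, *TGFB1* at -0.52, and 2 were higher, against 12.3% and 10.7% of all genes. The latter were *COL1A1* at 1.41 and, named after its value was seen, *TNC*, a ligand of *ITGA9*, at least 1.63-fold. *COL1A1* is also 1 of 5 fibroblast markers, of which it and *PDGFRB* were above background, while *DCN*, *LUM* and *COL1A2* did not pass background on any array. The summed signal of all 5, those below background included, was 52.4 in mock, 118 after *miR-139-5p* and 44.3 after *miR-139-3p*. The sum follows *COL1A1*, whose signals were 40.1, 107 and 26.2, whereas *PDGFRB*, at 6.91, 7.21 and 13.3, was higher with *miR-139-3p* at 0.94. Of 4 endothelial markers, 2 were above background in mock, 1 after *miR-139-5p* and 2 after *miR-139-3p*, and *PECAM1* and *KDR* did not pass background on any array. The summed signal of all 4, with the probe of *CDH5* brightest, was 23.0, 21.1 and 44.6. *LAMA4* and *LAMB2* were also highest with *miR-139-3p*, and so were members of other roles, such as *ITGA2*, *ITGA7* and *ITGAM*. The part of these cell type markers in the values of the members was not tested.

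**Figure D5:**
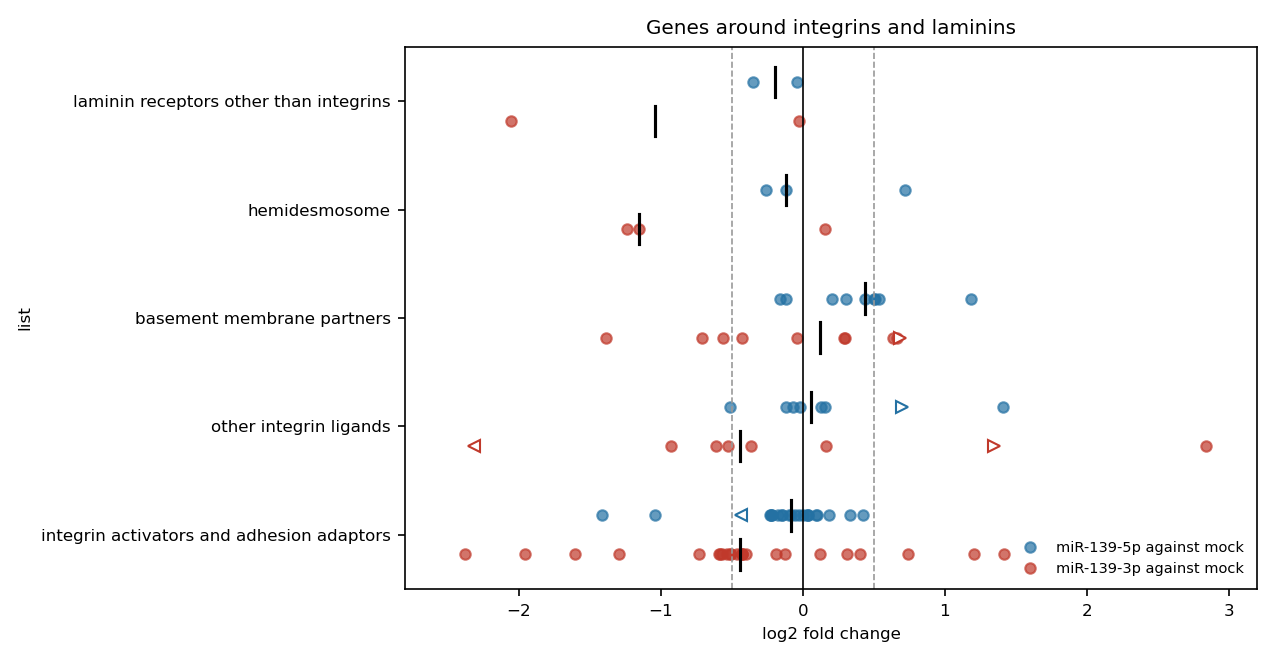
Log2 fold change against mock (x axis) of the genes of 5 lists around integrins and laminins (y axis), blue for *miR-139-5p* and red for *miR-139-3p*. Points are genes measured on both arrays, open triangles are bounds, black bars are medians over both and dashed lines mark -0.5 and 0.5; the median of the activators and adaptors was -0.44 after *miR-139-3p* and -0.08 after *miR-139-5p*.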

How the data were processed

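Spot intensity values of 3 arrays, background-subtracted by Feature Extraction 12.1.1.1, and a log2 table per probe were deposited by the authors. The deposited log2 columns, each with a median of 2.21, matched quantile-normalized signals with correlations of 0.999988 for mock, 0.999989 after *miR-139-5p* and 0.999970 after *miR-139-3p* and served as an alternative. From the intensities, log2 minus the log2 75th percentile of each array (93.6, 88.9 and 81.0 in that order) was computed over spots other than controls. Outlier spots (614, 935 and 1526) were left out and spots of a probe averaged. A probe was well above background where at least 50% of its spots were. Accessions were named through RefSeq annotation of GRCh38.p14, which matched 24751 of 25277 probes with an NM accession. Members and lists were chosen with earlier results of these data known. Named were all members with a value, cell type markers and, from each surrounding list, the 3 lowest and 3 highest genes past the fold with *miR-139-3p* and the 2 lowest and 2 highest with *miR-139-5p*, measured on both arrays; exceptions are marked. Some items are counted but not reported by name here. In total 12 alternatives changed scaling, background correction, dim probes, the probe taken, outliers, threshold or the values. The steps were tested on simulated data. Python 3.11.15, numpy 2.4.6, pandas 2.3.3, matplotlib 3.10.9, R 4.3.3 and limma 3.58.1 (normexp, offset 50) were used. Binding sites of the miRNAs in transcripts were not analysed here.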

Additional observations from a re-analysis of the deposited data

Results flagged for a closer look

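*ITGA6* and *LAMC1* stood on opposite sides of mock in the comparisons, each past the log2 fold of 0.5. Of all genes, 27.9% were lower with *miR-139-3p* and 10.7% higher with *miR-139-5p*. The share of all genes called on opposite sides was not counted, so the pattern is not shown to be particular to these members. *ITGA6*, the alpha subunit of the hemidesmosome receptor for laminin, was at 0.82 with *miR-139-5p* and at -1.04 with *miR-139-3p*. *LAMC1*, the gamma chain of the common basement membrane laminins, was at 0.88 with *miR-139-5p* and at -0.52 with *miR-139-3p*. The last came inside the fold with quantile normalization (-0.34), the percentile over detected probes (-0.38) and the deposited values (-0.33), while *ITGA6* stayed past it in all 11 alternatives for each strand. With 1 array per condition the difference between the comparisons was not tested, and the *miR-139-3p* array was also on another slide.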

How the results depend on the processing

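Over the alternatives, 295 of 335 member values for *miR-139-3p* and 318 of 338 for *miR-139-5p* stayed within the median SD of probes that share a gene, 39 and 20 moved by more, and 1 and 0 turned sign from a called value. For surrounding genes and markers these were 635 of 686 and 626 of 656, with 50 and 30 that moved more and 1 and 0 that turned. Those that turned were *LAMA4* (-0.051) and *TNS1* (-0.76) for *miR-139-3p* with dim probes included, which averages in probes not well above background. Part of the values that stayed could not move. For a gene measured by its only probe, without outlier spots, the settings for dim probes, bounds, outliers and the probe taken leave the value unchanged. The deposited values also follow quantile normalization closely. The counts that stayed are therefore partly fixed in advance.

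Counts of members past the fold with *miR-139-3p* (10 lower, 11 higher) moved most as follows. Lower members were 6 with the 75th percentile over detected probes, 5 with normexp and 3 at a log2 fold of 1. Higher members were 7 with quantile normalization, E1A scaling, no scaling or the deposited values, 4 with normexp and 3 at a log2 fold of 1. With *miR-139-5p* (5 lower, 10 higher), lower members were 8 with no scaling, 1 with normexp, 3 without bounds and 2 at a log2 fold of 1, and higher members were 5 with normexp and 3 at a log2 fold of 1. The member median of 0.07 became 0.25 with dim probes included. That of -0.16 with *miR-139-3p* turned to 0.12 without bounds, 0.05 with dim probes, 0.03 with quantile normalization and 0.01 with normexp. Surrounding genes lower with *miR-139-3p* (21) were 12 with the percentile over detected probes and 9 at a log2 fold of 1. They were 14 with quantile normalization or the deposited values. Those higher with *miR-139-3p* (8) were 5 with E1A or no scaling and 4 with normexp or a log2 fold of 1. Those higher with *miR-139-5p* (7) were 4 with no scaling, 3 with normexp and 2 at a log2 fold of 1. Over all genes, normexp left 2933 lower genes after *miR-139-3p* and 1552 higher ones, and 630 and 517 after *miR-139-5p*, and its offset shrinks dim folds by construction. A log2 fold of 1 and leaving out bounds call fewer genes by construction, and for the other settings the cause was not tested. No paired analysis was possible because each condition had 1 array. Signal over background limits what can be compared, and 6 members were not well above background on any array.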
